A study of Mus musculus with 2 samples.

Results

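The genes of the T cell receptor complex and its coreceptors were described across single cells of mouse colon crypts. They were chosen by symbol, namely the CD3 chains Cd3d, Cd3e, Cd3g and Cd247, the receptor constant genes Trac, Trbc1 and Trbc2, and the coreceptors Cd8a, Cd8b1 and Cd4, and all 10 had a row among the 19294 gene symbols of the count matrix. Cells came from C57BL/6 mice of the genotype Tcf4GfpCre/+ RosamTmG/+, 4 to 10 months old and untreated, in 2 pools (samples 1 to 3 and samples 4 to 6) labelled Tcf4 Lin-/Tcf4 DP. All animals thus carried the Cre allele at Tcf4 in the heterozygous state, which replaces red by green membrane fluorescence in cells with a history of Tcf4 promoter activity. Tcf4 Lin- cells are red at the membrane and lack that history, and Tcf4 DP cells carry both colours, so the sort was made on the reporter and not on a lymphocyte or an epithelial marker. Each pool mixed animals, and no barcode could be assigned to an animal or a pool. Human cells had been added before Drop-seq, and mouse barcodes were used here.

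In an alpha beta T cell, the antigen receptor is a pair of alpha and beta chains, each with a variable end and a constant part encoded by Trac or by either of Trbc1 and Trbc2. In a gamma delta T cell, the pair is made with Trdc and a gamma constant gene instead. Both kinds of receptor reach the cell surface and signal together with CD3 chains. These are encoded by Cd3d, Cd3e, Cd3g and Cd247 (CD3 zeta), and the kinds of receptor need not use the same set of them. The coreceptors bind the MHC molecule that presents the antigen. CD4 binds class II, and CD8, made as an alpha beta heterodimer (Cd8a with Cd8b1) or an alpha alpha homodimer (Cd8a alone), binds class I. Intraepithelial lymphocytes (IELs) are lymphocytes, largely T cells, that lie between epithelial cells. Induced IELs are conventional alpha beta T cells that entered the epithelium after activation. Natural IELs include gamma delta T cells and cells with the CD8 alpha alpha homodimer.

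Drop-seq counts captured transcripts as unique molecular identifiers (UMIs). The authors' cluster table divided part of 1117 barcodes into 4 clusters, 190 natural IELs (nIELs, 242770 UMIs), 186 induced IELs (iIELs, 284127 UMIs), 47 B cells (76713 UMIs) and 93 epithelial Pigr+ cells (248294 UMIs). Median depths of the clusters were 1145.5, 965.5, 1503 and 1645 UMIs per cell. A level is the summed UMIs of a gene per 1000000 UMIs of its cluster (CPM) with an exact Poisson 95% interval, a share of cells with at least 1 UMI has an exact Clopper-Pearson 95% interval, and a ratio of levels has an exact binomial 95% interval. These intervals cover counting error only. With 1 condition and no replicates no test was made. The clusters were drawn by the authors from these same counts, so that differences between clusters are given as descriptions. The paper shows Cd8a and Cd8b1 as markers of induced IELs and Fcer1g, an adapter gene, as a marker of natural IELs. The contrasts of these genes are thus not independent of the cluster names.

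A group of 14 cells bore on every comparison of the IEL clusters. They stood as IELs in the table of all cells (11 iIELs and 3 nIELs) and as epithelial cells in the authors' table of epithelial subclusters. The 6 epithelial markers Epcam, Krt8, Krt18, Krt19, Pigr and Cldn7 together had 20695 CPM in these cells, near the 21475 CPM of the epithelial cluster, against 162 CPM in the other iIELs and 62.5 CPM in the other nIELs. Of the 14, 13 held no UMI of the 10 genes. The exception, a cell of 1536 UMIs, held 24, of which 14 were Trac and 6 Trbc2. The 4 deepest, with 19945 to 23205 UMIs where no other iIEL passed 3752, held no such UMI (1 of them held 1 UMI of the gamma constant gene Tcrg-C3) and 30.7% of all UMIs of the iIEL cluster. Values for the 187 nIELs and 175 iIELs that remain without these 14 cells are therefore given first, and those with all cells beside them. To order epithelial cells along a path of differentiation, the paper selected cells with Pigr and without T cell markers. It does not state whether its subcluster table was made with this selection. If so, the lack of receptor UMIs in the 14 cells is in part fixed by it, as are higher CD3 values without them.

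The beta chain constant genes are near copies of each other, and how far counts can tell them apart depends on where reads fall. Their ends are shown here because Drop-seq reads mostly come from near the 3′ end of a transcript. In the GENCODE M21 annotation of GRCm38, Trbc1 lies at chr6:41538218-41539881 and Trbc2 at chr6:41546730-41548352, both on the plus strand. Their 518 annotated coding bases were 95.6% identical, with 23 differing bases, of which 1 was in the first exon of 375 bases and 22 were after it. The last 60 coding bases, from the third exon and the start of the fourth (chr6:41539294-41539335 and chr6:41539645-41539662 for Trbc1, chr6:41547837-41547878 and chr6:41548161-41548178 for Trbc2), differed at 11 bases, shown in capitals.
Trbc1: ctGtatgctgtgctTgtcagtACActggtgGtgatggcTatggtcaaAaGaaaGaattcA
Trbc2: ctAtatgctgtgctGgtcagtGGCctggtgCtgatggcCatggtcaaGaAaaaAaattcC
After the stop codon the longest run of bases shared by the annotated transcripts was 8. A read that ends within the first exon could be split between these genes, and how the authors' counting treated such reads is not given in the sources used here.

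Promoter sequence from RefSeq (GRCm38.p6) was found for 5 of the 10 genes, Cd3d, Cd3e, Cd3g, Cd247 and Cd8a. Cd3g and Cd3d lie head to head on chromosome 9 with 1355 bases between their starts, and they are shown because both had like levels in the 2 IEL clusters, while Cd8a, also shown, did not. The 250 bases before each start were searched on both strands for AGGAAG (an ETS core), CAGGTG (an E-box) and TGTGGT (a Runt core), and matches are in capitals. The Cd3g window is chr9:44980432-44980681 (minus strand), the Cd3d window chr9:44981536-44981785 (plus strand) and the Cd8a window chr6:71373177-71373426 (plus strand).
Cd3g: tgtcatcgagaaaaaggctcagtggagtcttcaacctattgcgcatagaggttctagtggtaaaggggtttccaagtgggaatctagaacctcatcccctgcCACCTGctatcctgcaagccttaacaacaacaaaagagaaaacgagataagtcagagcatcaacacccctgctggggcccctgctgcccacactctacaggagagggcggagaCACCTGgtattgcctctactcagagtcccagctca
Cd3d: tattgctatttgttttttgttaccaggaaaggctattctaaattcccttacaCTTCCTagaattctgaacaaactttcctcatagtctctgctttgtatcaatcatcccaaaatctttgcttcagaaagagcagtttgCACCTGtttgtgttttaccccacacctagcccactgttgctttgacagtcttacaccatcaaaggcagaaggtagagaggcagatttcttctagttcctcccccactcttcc
Cd8a: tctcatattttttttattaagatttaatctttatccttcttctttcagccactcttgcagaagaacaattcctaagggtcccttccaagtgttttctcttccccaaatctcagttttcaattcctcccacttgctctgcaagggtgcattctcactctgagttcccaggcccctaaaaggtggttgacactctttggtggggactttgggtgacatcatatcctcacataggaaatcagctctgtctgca
The E-box was in the windows of Cd3d, Cd3g and Cd247 and in 17.2% of all 32851 promoters of this length. The ETS core was in those of Cd3d, Cd3e and Cd247 and in 29.5% of all promoters. The Runt core was in none of the 5 and in 14.0% of all. A match is a run of letters and was not tested as a binding site.

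UMIs of the receptor complex were mostly in the IEL clusters. The paper named these clusters by T cell characteristics in the same counts, so the numbers below are descriptions and no support for the names. Without the 14 cells, 181 of 187 nIELs (96.8%) and 171 of 175 iIELs (97.7%) held a UMI of at least 1 of the 10 genes, against 21 of 47 B cells and 4 of 93 epithelial cells. Against the epithelial cluster, 9 of the 9 genes with at least 20 UMIs were at least 2-fold higher in the IELs, where 26.5% of 5182 genes were, and 0 were at least 2-fold lower, where 22.4% were. Each of the 9 passed this minimum through the IELs, with at most 2 UMIs (Cd3d) in the epithelial cluster. The outcome against that cluster was thus fixed by the minimum. Against the B cell cluster, 8 of 9 were at least 2-fold higher, where 18.8% of 3844 genes were, and 0 were at least 2-fold lower, where 7.00% were. The exception was Cd8b1, at 388 CPM in the IELs and 326 CPM in the B cell cluster, a ratio of 1.19 (0.779 to 1.89).

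**Figure D1:**
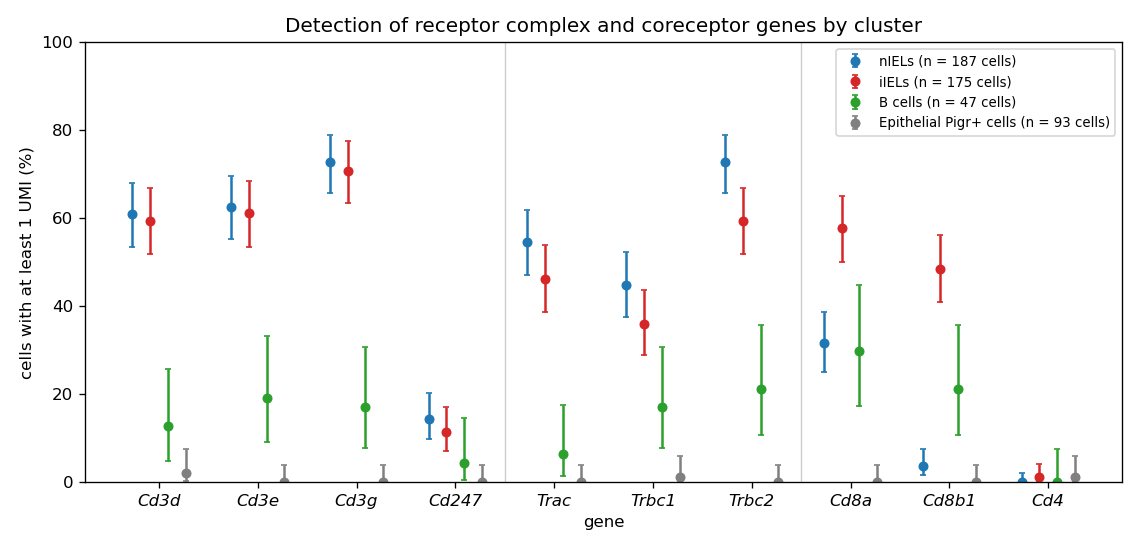
Share of cells with at least 1 UMI (y axis, percent) for each of the 10 genes (x axis) in 4 clusters; points are shares and bars exact Clopper-Pearson 95% intervals, with the 14 cells listed also as epithelial left out of the IELs. The CD3 chains sit at like heights in nIELs and iIELs, Cd8b1 stands at 3.74% in nIELs and 48.6% in iIELs, and Cd4 stays near 0 throughout.

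The CD3 chains stood at like levels in both IEL clusters. Cd3d, which pairs with CD3 epsilon in the complex, had 1133 CPM (1003 to 1276) in nIELs and 1042 CPM (900 to 1200) in iIELs, a ratio of iIELs to nIELs of 0.920 (0.761 to 1.11). Cd3e, which pairs with both CD3 delta and CD3 gamma, had 1033 CPM (909 to 1170) and 1080 CPM (936 to 1241), a ratio of 1.05 (0.863 to 1.26). Cd3g had 1408 CPM (1262 to 1567) and 1518 CPM (1345 to 1706), a ratio of 1.08 (0.917 to 1.27). Each of these intervals of the ratio holds 1. Cd247, whose zeta chain carries most of the signalling motifs of the complex, was thinly covered, at 142 CPM (98.1 to 198) and 124 CPM (78.7 to 186) from 34 and 23 UMIs, with a ratio of 0.877 (0.493 to 1.53).

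Summed, the 4 CD3 chains had 3716 CPM (3476 to 3968) in nIELs and 3764 CPM (3490 to 4055) in iIELs, a ratio of 1.01 (0.916 to 1.12). With the 14 cells kept, the ratio was 0.671 (0.606 to 0.741), since the iIEL total then includes deep cells without CD3 UMIs. Barcodes end in X1 or X2, a mark that the labels do not explain, and without the 14 cells the ratio was 1.01 within set X1 and 1.03 (0.704 to 1.503) within set X2, which held 17 nIELs and 13 iIELs.

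Per cell, the chains were seen in part. Among 187 nIELs, 17 held a UMI of none of the 4 chain genes, 36 of 1, 59 of 2, 60 of 3 and 15 of all 4. Among 175 iIELs these numbers were 14, 35, 61, 62 and 3. At least 1 chain was thus seen in 90.9% of nIELs (85.8% to 94.6%) and in 92.0% of iIELs (86.9% to 95.6%), and in 87.0% and 90.1% once each cell was thinned to 700 UMIs, which left out 32 nIELs and 33 iIELs. In the epithelial cluster, which should lack the complex, 2 of 93 cells (2.15%) held a CD3 UMI at a median depth of 1645 UMIs.

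IELs without a CD3 UMI were shallower and mostly held other receptor genes. Their median depth was 833 UMIs in nIELs and 713 in iIELs, against 1155.5 and 964 in those with one. If every cell had the level of its cluster, depth alone would leave 5.91 nIELs and 7.06 iIELs without a CD3 UMI, where 17 and 14 were seen. Of these, 14 of the 17 nIELs and 11 of the 14 iIELs held a UMI of an alpha, beta, gamma or delta constant gene. The natural killer and innate lymphoid list (Ncr1, Klrb1c, Klrb1b, Eomes, Il7r and Gata3) stood at 275 CPM in each whole IEL cluster without the dual-listed cells. Its range over all these cells was from 0 to 7288 CPM in nIELs and from 0 to 5982 CPM in iIELs. Of its genes, Klrb1b was at 0 in iIELs, and in nIELs none was at 0. The myeloid list (Lyz2, Csf1r, Cd68, Itgax, Adgre1 and Cd14) stood at 20.8 CPM in these nIELs and 119 CPM in these iIELs. Its highest values in a cell were 803 CPM and 35647 CPM. Neither list was summed over the cells without CD3 UMIs alone. The 14 iIELs without CD3 UMIs also held 22 of the 27 UMIs of Epcam, Krt8, Krt19 and Pigr that their cluster had. Such UMIs were uneven over cells. Among iIELs that were not dual-listed, the 6 epithelial markers had a median of 0 and a maximum of 20126 CPM per cell. The part of these lists in the missing CD3 UMIs was not tested.

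**Figure D2:**
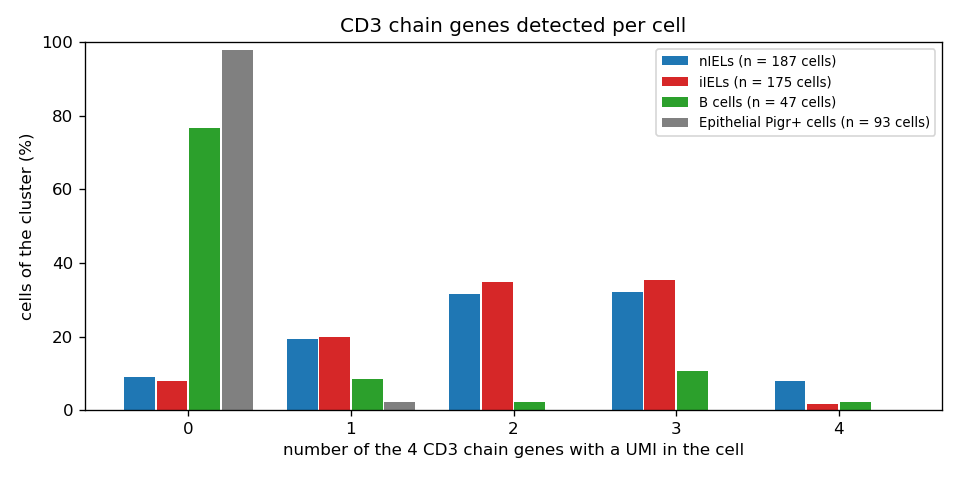
Number of the 4 CD3 chain genes (Cd3d, Cd3e, Cd3g, Cd247) with a UMI in a cell (x axis) and share of the cells of each cluster (y axis, percent); bars start at 0 and the 14 cells listed also as epithelial are left out of the IELs. The IEL clusters peak at 2 and 3 genes, and 91 of 93 epithelial cells and 36 of 47 B cells stand at 0.

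Pairs of the abundant chains met in cells slightly more often than independent detection gives. For Cd3d and Cd3e, 81 nIELs held both where 71.3 follow from independence and 74.3 from independence at each cell's depth, and 69 iIELs did where 63.6 and 66.1 follow. For Cd3e and Cd3g the numbers were 93 nIELs against 88.03 at depth and 81 iIELs against 78.0. None of these pairs avoided each other, and no interval was put on a co-detection count.

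The alpha beta constant genes were the next group. Trac, the alpha chain constant gene, had 846 CPM (733 to 970) in nIELs and 870 CPM (740 to 1015) in iIELs, a ratio of 1.03 (0.831 to 1.27). Trbc1 had 954 CPM (834 to 1086) and 794 CPM (671 to 933), a ratio of 0.832 (0.672 to 1.03). Trbc2 had 1567 CPM (1412 to 1733) and 1291 CPM (1132 to 1465), a ratio of 0.824 (0.698 to 0.972), whose interval lies below 1. Trbc2 was seen in 72.7% of nIELs and 59.4% of iIELs, and in 59.5% and 50.8% after thinning to 700 UMIs. With the 14 cells kept, the ratios were 0.737 for Trac, 0.548 for Trbc1 and 0.557 for Trbc2.

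A mature alpha beta T cell uses 1 of the beta constant genes for its receptor, yet the tables held many cells with both. UMIs of Trbc1 and Trbc2 stood together in 63 of 187 nIELs, where 61.1 follow from independence, and in 37 of 175 iIELs, where 37.4 do. Trbc1 alone was in 21 nIELs and 26 iIELs and Trbc2 alone in 73 and 67, which leaves 30 nIELs and 45 iIELs with neither. The pair met as often as unrelated genes would. What part of this comes from reads that match both copies was not tested.

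The gamma delta constant genes, which are no members but share the complex, set the IEL clusters apart. Trdc, the delta constant gene, had 358 CPM (287 to 442) in nIELs and 140 CPM (91.7 to 206) in iIELs, a ratio of 0.392 (0.243 to 0.614). Tcrg-C1 had 500 CPM (415 to 598) and 211 CPM (150 to 288), a ratio of 0.421 (0.286 to 0.609). Tcrg-C4 had 492 CPM (407 to 589) and 157 CPM (105 to 225), a ratio of 0.319 (0.205 to 0.482). Tcrg-C2 differed less, with 846 CPM (733 to 970) and 535 CPM (435 to 651), a ratio of 0.632 (0.492 to 0.808). Tcrg-C3 had 3 UMIs in the 2 clusters together. Trdc, Tcrg-C1 and Tcrg-C4, were at least 2-fold lower in iIELs, which is 3 of the 4 with at least 20 UMIs, where 5.72% of 3321 genes were. With the 14 cells kept, Tcrg-C2 stood at 836 CPM in nIELs and 348 CPM in iIELs, a ratio of 0.417 (0.324 to 0.532), and all 4 were at least 2-fold lower, where 6.97% of 4189 genes were. The ratios of Trdc, Tcrg-C1 and Tcrg-C4 were then 0.258, 0.278 and 0.210.

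Between the IEL clusters the members themselves were mostly level. Without the 14 cells, 2 of 9 members with at least 20 UMIs, Cd8a and Cd8b1, were at least 2-fold higher in iIELs, where 6.20% of 3321 genes were, and 0 of 9 were at least 2-fold lower, where 5.72% were. With all cells, 1 of 9, Cd8b1, was at least 2-fold higher, where 13.2% of 4189 genes were, and 0 were at least 2-fold lower, where 6.97% were. The median log2 ratio of the members was 0.04 without the 14 cells and -0.54 with them, beside 0.00 for all genes in either case.

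**Figure D3:**
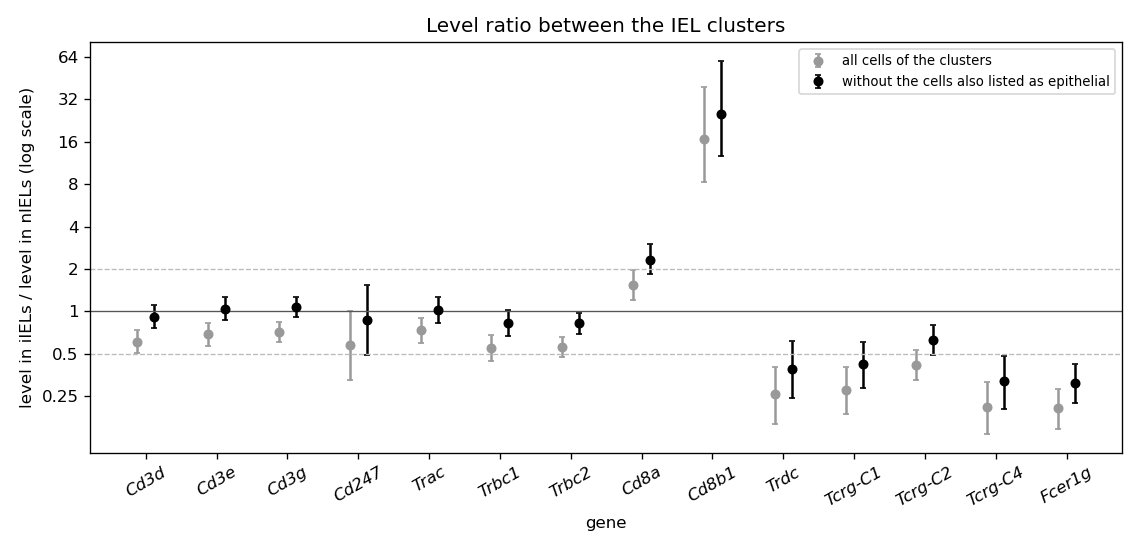
Ratio of the level in iIELs to that in nIELs (y axis, log scale) for 9 members, 4 gamma delta constant genes and Fcer1g (x axis), with all cells of the clusters (grey) and without the 14 cells listed also as epithelial (black); bars are exact binomial 95% intervals and dashed lines mark 2-fold. Leaving out the 14 cells moves every ratio up, brings the CD3 chains to about 1 (1.01 summed) and leaves Cd8b1 (25.4) and Cd8a (2.34) past 2-fold.

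Cd8b1, the beta chain of the CD8 heterodimer, differed most and is among the markers that the paper shows for its induced IELs. Of 187 nIELs, 7 held it (3.74%, 1.52% to 7.56%) with 8 UMIs in all, and 85 of 175 iIELs did (48.6%, 41.0% to 56.2%) with 157 UMIs. Levels were 33.3 CPM (14.4 to 65.7) and 848 CPM (720 to 991), a ratio of 25.4 (12.6 to 59.96), or 16.8 (8.30 to 39.5) with the 14 cells. The ratio was 26.0 within set X1 and 23.7 (3.56 to 1006) within set X2, where nIELs held 1 UMI. Thinned to 700 UMIs, the shares were 2.12% and 38.6%. No epithelial cell held a UMI of it, which allows a share of up to 3.23%.

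Cd8a, the alpha chain that both forms of CD8 need, was present in both clusters and higher in iIELs. It was seen in 59 of 187 nIELs (31.6%) and 101 of 175 iIELs (57.7%), with levels of 442 CPM (362 to 534) and 1032 CPM (890 to 1189). The ratio was 2.34 (1.83 to 2.99), or 1.54 (1.21 to 1.97) with the 14 cells. It was 2.18 within set X1 and 5.20 (2.11 to 14.6) within set X2. Cd8a and Cd8b1 are neighbours on chromosome 6, Cd8b1 at chr6:71322788-71337494 and Cd8a at chr6:71373427-71379173, both on the plus strand.

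Cd4, the coreceptor of helper T cells, was almost not seen. No nIEL of 187 held a UMI, which allows a share of up to 1.60%, and 2 of 175 iIELs did (1.143%, 0.139% to 4.07%), both among cells with UMIs of both CD8 genes. The dual-listed cell with 24 receptor UMIs held 1, the B cell cluster held none of 47 (up to 6.38%), and 1 epithelial cell held 1. The share in iIELs lies within counting error of that in the epithelial cluster (1.08%, 0.0272% to 5.85%), and Cd4 expression in IELs above that background was not detectable at this depth.

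CD8 genes divided the cells of each cluster differently. In nIELs, 53 cells held Cd8a alone, 6 held both genes, 1 held Cd8b1 alone and 127 held neither. In iIELs, 42 held Cd8a alone, 59 both (33.7%, 26.8% to 41.2%), 26 Cd8b1 alone and 48 neither. Since Cd8b1 alone was in 26 iIELs, and its protein reaches the surface with CD8 alpha, absence of a UMI is no absence of the gene, and cells with Cd8a alone cannot be read as carriers of the homodimer. The 59 iIELs with both genes compare with 49.1 from independence and 51.3 at each cell's depth. In nIELs, 6 of the 7 cells with Cd8b1 also held Cd8a, where 2.57 follow at depth.

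The CD8 classes kept the CD3 complex. CD3 UMIs were in all 53 nIELs with Cd8a alone and in 58 of 59 iIELs with both CD8 genes, in 39 of 42 with Cd8a alone and in 25 of 26 with Cd8b1 alone. Among cells with neither gene, 110 of 127 nIELs and 39 of 48 iIELs held a CD3 UMI. Summed CD3 levels in iIELs were 3475 CPM (3043 to 3951) with both genes, 4517 CPM (3934 to 5163) with Cd8a alone, 3940 CPM (3164 to 4849) with Cd8b1 alone and 3339 CPM (2842 to 3898) with neither, and of these only the intervals of the highest and the lowest do not overlap. In nIELs all 7 cells with Cd8b1 held Trac, where 4.25 follow at depth, and 43 of 59 cells with Cd8a did, where 34.8 follow.

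Induced IELs with Cd8b1 stood apart from Trdc, from Tcrg-C1 and from Fcer1g, an adapter chain that can take the place of CD3 zeta in some T cells. Fcer1g itself was seen in 101 of 187 nIELs and 26 of 175 iIELs, with a ratio of 0.312 (0.224 to 0.426). Among iIELs, no cell held both Cd8b1 and Trdc, where 5.81 follow at depth from 85 and 11 cells. With Tcrg-C1, 3 cells did, where 12.1 follow. With Fcer1g, 1 cell did, where 13.6 follow. The other gamma genes showed no such gap, with 30 cells against 33.1 for Tcrg-C2 and 14 against 13.7 for Tcrg-C4. Among the 7 nIELs with Cd8b1, 4 held Tcrg-C1, where 2.81 follow, 2 held Fcer1g, where 4.2 follow, and none held Trdc, where 1.5 follow. Tcrg-C1 thus did not show the gap there. Cd8a did not share the pattern to this extent, with 6 iIELs holding Cd8a and Trdc where 6.83 follow, 12 holding Cd8a and Tcrg-C1 where 14.2 follow, and 10 holding Cd8a and Fcer1g where 16.04 follow. The clusters were drawn from these same counts, and the paper shows Cd8b1 and Fcer1g as markers of different IEL clusters. Which genes meet within a cluster can thus depend on the clustering itself, and its part in these gaps was not tested.

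Trdc and Tcrg-C1 in turn met often. Among iIELs, 9 of the 11 cells with Trdc held Tcrg-C1, where 1.66 follow at depth, and 5 held Tcrg-C4, where 1.89 follow. Among nIELs, 22 of 34 held Tcrg-C1, where 13.2 follow, 18 held Tcrg-C4, where 14.4 follow, and 17 held Tcrg-C2, where 19.7 follow. Trac and Trdc stood together in 15 nIELs, where 20.1 follow, and in 3 iIELs, where 5.53 follow. Trdc thus went with Tcrg-C1 in both clusters and met Trac a little less often than depth gives.

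**Figure D4:**
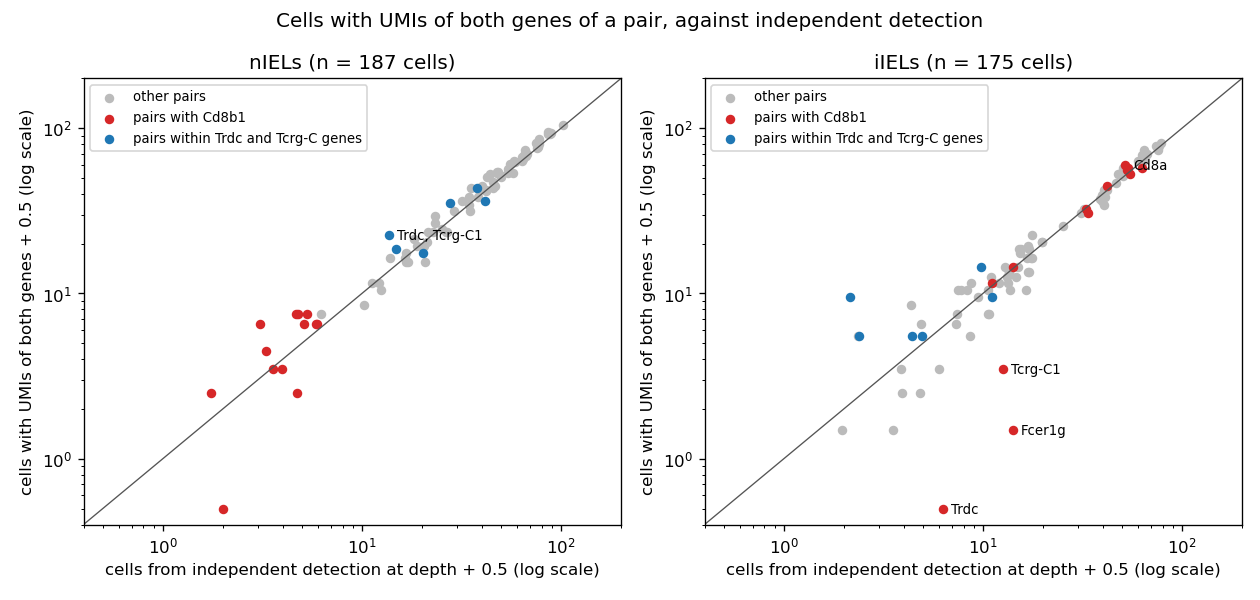
Cells with UMIs of both genes of a pair (y axis) against the number from independent detection at each cell's depth (x axis), both plus 0.5 on log scales, for 91 pairs of 14 genes in nIELs and iIELs without the 14 cells listed also as epithelial; the line marks equal numbers. In iIELs, the pairs of Cd8b1 with Trdc, Tcrg-C1 and Fcer1g fall below the line (0, 3 and 1 cells), and pairs within the gamma delta genes lie near or above it.

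Constant genes of both receptor kinds were common in the same cell. UMIs of an alpha or beta and of a gamma or delta constant gene stood together in 135 of 187 nIELs and 75 of 175 iIELs. Gamma and beta constant genes are known to be transcribed in T cells that use the other receptor, so that a UMI of a constant gene does not show which receptor a cell carries. As a share of all UMIs of these 8 genes, the gamma delta genes had 39.5% (36.9% to 42.2%) in nIELs and 26.3% (23.1% to 29.6%) in iIELs. The order was the same within both barcode sets, 38.7% and 26.5% in X1 and 47.5% (38.3% to 56.8%) and 23.3% (11.8% to 38.6%) in X2.

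Within iIELs this share differed between the coreceptor classes. It was 16.8% (12.6% to 21.8%) in cells with both CD8 genes, 23.1% (14.3% to 34.0%) in those with Cd8b1 alone, 31.98% (25.5% to 39.0%) in those with neither and 35.2% (28.5% to 42.4%) in those with Cd8a alone. The interval of cells with both CD8 genes overlaps neither that of cells with Cd8a alone nor that of cells without either gene. Neighbours in this order do overlap. The intervals count UMIs and not cells, and an iIEL held up to 9 gamma delta UMIs, so that spread between cells is not covered. In nIELs the shares were 40.1% (35.5% to 44.8%) with Cd8a alone and 39.9% (36.5% to 43.3%) with neither. In nIELs with both genes it was 31.4% (20.9% to 43.6%) from 70 UMIs, and with Cd8b1 alone 50% from 4 UMIs.

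**Figure D5:**
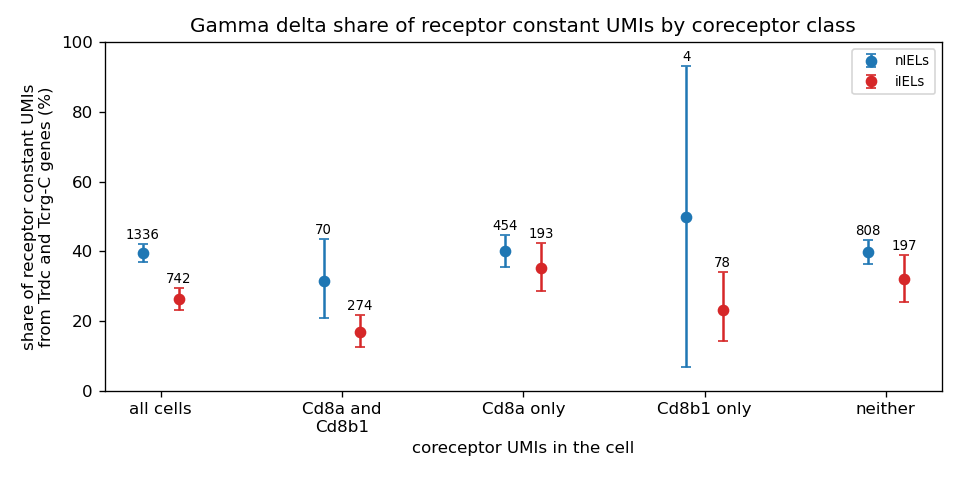
Gamma delta share of the UMIs of 8 receptor constant genes (y axis, percent) by the CD8 genes seen in the cell (x axis), in nIELs and iIELs without the 14 cells listed also as epithelial; bars are exact Clopper-Pearson 95% intervals and the number over each bar counts UMIs. The iIELs with both CD8 genes have the lowest share of the iIEL classes (16.8%), and nIELs with Cd8a alone (40.1%) and with neither gene (39.9%) are level.

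Variable gene rows were thinly covered with 1 exception. In the cells of the 4 clusters, 14 Trav rows had 18 UMIs, 15 Trbv rows 32, 4 Trdv rows 12 and 5 gamma variable rows 172. Of these 172, 158 were Trgv2. Trgv2 had 446 CPM (365 to 539) in nIELs and 248 CPM (182 to 331) in iIELs and was seen in 38.0% and 19.4% of cells. The alpha and beta variable rows were too thin to describe a repertoire.

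The B cell cluster held a UMI of the 10 genes in 21 cells, of which 11 held CD3, 7 held Siglech and 3 held neither. CD3 UMIs were in 11 of its 47 cells (23.4%, 12.3% to 38.0%), which had a median of 2115 UMIs against 1302 in the other 36. Of these 11, 10 also held Cd79a, Cd79b or Ms4a1, and all 11 held Cd74. Their B cell markers (with Cd74, H2-Aa, H2-Ab1 and H2-Eb1) summed to 14843 CPM against 29969 CPM in the other cells, and 8 of them held Cd8a or Cd8b1. None had a barcode that differed at 1 base from an IEL barcode of the same set. No doublet caller was run, and whether these barcodes hold 2 cells was not tested.

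Cd8b1 also appeared without CD3. In the B cell cluster, 8 cells held Siglech, a surface receptor known from plasmacytoid dendritic cells, with 81 UMIs in all, while the other 3 clusters held none. This gene was chosen after its values were seen. None of the 8 held a CD3 chain UMI or a UMI of Cd79a, Cd79b or Ms4a1. Cd8b1 was in 6 of them with 17 of the 25 Cd8b1 UMIs of the cluster, Cd8a was in 4, and Trbc1 was in 1. The 28 cells with neither Siglech nor a CD3 UMI held 2 UMIs of Cd8b1 in 1 cell. Most Cd8b1 UMIs of the B cell cluster were thus in cells without UMIs of CD3, Cd79a, Cd79b or Ms4a1. These cells did hold Cd74, as did all 36 cells of the cluster without a CD3 UMI.

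Receptor genes were near 0 in the epithelial cells. In the subclusters, this is in part fixed if their table was made by selecting cells without T cell markers. The epithelial cluster held 4 UMIs of the 10 genes, in 4 cells with 1 each (Cd4 in 1, Cd3d in 2 and Trbc1 in 1), or 16.1 CPM. In the authors' subclusters, the 32 stem cells held 1 UMI (Cd4), the 32 secretory precursors held none, and the 42 absorptive precursors held 27, of which 24 were from the dual-listed cell above. CD3 UMIs in the stem cells and secretory precursors were 0 of 32 cells each, which allows a share of up to 9.38%.

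Signalling genes close to the receptor differed among themselves between the IEL clusters. Of 29 listed, 20 had at least 20 UMIs without the 14 cells, 5 were at least 2-fold higher in iIELs, where 6.20% of all genes were, and 2 at least 2-fold lower, where 5.72% were. The median log2 ratio of the 20 was 0.08. Lck and Zap70, the kinases that start the signal at CD3, were level, with ratios of 1.05 (0.794 to 1.39) and 0.972 (0.548 to 1.70). The genes highest in iIELs were Cd6 at 9.07 (2.71 to 47.5) and Cd5 at 4.44 (1.86 to 12.2), surface proteins that dampen receptor signalling, then the costimulatory receptor Icos at 3.02 (1.09 to 9.60) and the adapter Grap2 at 2.70 (1.31 to 5.90). Lat, the membrane scaffold of the receptor signal, had 448 CPM in iIELs and 192 CPM in nIELs, a ratio of 2.34 (1.61 to 3.43). Lower in iIELs were the Tec kinase Txk at 0.432 (0.188 to 0.908) and the costimulatory receptor Cd27 at 0.496 (0.240 to 0.964). With all cells, 3 were at least 2-fold higher (Cd5, Cd6 and Icos), beside 13.2% of all genes, and 4 lower (Txk, Skap1, Cd2 and Cd27), beside 6.97%, and Lat was no longer past 2-fold.

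Across all cells of the 4 clusters, the genes most like the summed CD3 chains among 1381 with at least 100 UMIs were Ccl5 (Pearson r 0.676 on log values), Tmsb4x (0.659), B2m (0.613), H2-D1 (0.564) and AW112010 (0.542). Those most like Cd8b1 were Ms4a4b (0.410), Ccl5 (0.360), Lgals1 (0.328), Lat (0.317) and Id2 (0.316). Cells share their libraries and differ in depth and cluster, so that these values describe the matrix and carry no test.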

How the data were processed

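Drop-seq libraries of sorted colon crypt cells were made from 2 pools of mice. With the Drop-seq tools the authors made UMI counts for each gene symbol and barcode. Picard 1.137, STAR 2.5.0 and genome builds mm10 and hg19 are listed in the submitters' processing notes. Values were deposited as unnormalized counts, in 1 matrix of 1117 barcodes with 1023641 UMIs. The annotation behind the counts is not given in the sources used here. Cells were joined by barcode to the authors' 4 clusters and 3 epithelial subclusters, and 601 barcodes in neither were left out of comparisons. Barcode sets X1 (1042) and X2 (75) could not be assigned to pools, so all cells were 1 sample and no test was made. No barcode sequence was in both sets.

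From the counts, levels, shares and ratios were computed with Python 3.11.15, numpy 2.4.6, scipy 1.17.1 and pandas 2.3.3. Ratios were compared with 2-fold for genes with at least 20 UMIs in the groups compared, a limit of 3 UMIs was used where none was seen, and thinning to 700 UMIs used exact expected shares. Detection at depth took each gene at its level in the cluster, scaled to the number of cells seen. No doublet caller was run. IELs with at least 2 UMIs of Epcam, Krt8, Krt19 and Pigr, those listed also as epithelial, and barcodes at 1 base were left out or joined as alternatives. Named were the members, the gamma delta constant genes, Fcer1g, the signalling genes past 2-fold (up to 4 each way, plus Lat, Lck and Zap70, chosen after their values were seen) and the 5 genes most like CD3 and Cd8b1. A few genes of the signalling and marker lists are not reported here. Members and lists were chosen with earlier results of these data known. The computation was tested on simulated data. Sequences came from RefSeq and GENCODE M21 on GRCm38.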

Additional observations from a re-analysis of the deposited data

Results flagged for a closer look

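Barcodes outside the authors' clusters also held CD3 UMIs. Of 601 such barcodes, which no comparison used, 105 held a UMI of Cd3d, Cd3e, Cd3g or Cd247 (17.5%, 14.5% to 20.7%), where a count of 0 would allow up to 0.499%. They stood out because they are data outside the clusters that carry the signal. Of the 105, 63 held 1 of the 4 chain genes, 34 held 2, 8 held 3 and 0 held all 4. Their median depth was 300 UMIs, against 194 for the other 496. Summed, the 4 CD3 chains had 1194 CPM (1036 to 1369) in the 601 barcodes, between the 756 CPM of the B cell cluster and the 3716 CPM of nIELs without the cells listed also as epithelial. Cd8b1 was in 20 of them and Trac in 44. What these barcodes hold was not tested.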

How the results depend on the processing

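Of 65 alternatives, 44 stayed within the 95% interval of the value with all cells (counts of members, within 1.5 times), among them all those with barcodes joined at 1 base. The ratio of summed CD3 chains between iIELs and nIELs, 0.671 with all cells, turned to 1.01 without the cells listed also as epithelial and to 1.02 without IELs holding at least 2 epithelial UMIs, since these deep cells hold few CD3 UMIs, and was 0.954 as a mean of each cell's own CPM and 0.285 in set X2. The ratio of Cd8a, 1.54, was 2.34, 2.33 and 2.38 under the first 3 of these, and that of Cd8b1, 16.8, was 6.52 in set X2.

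With all cells, CD3 UMIs were in 89.5% of nIELs, 87.1% of iIELs and 23.4% of B cells, and both CD8 genes in 31.7% of iIELs. At least 2 CD3 UMIs were in 78.9% of nIELs and 75.3% of iIELs, and at least 2 of both CD8 genes in 11.3% of iIELs, or 22.7% with both after thinning. In set X2 the CD3 shares were 94.1% in nIELs, 81.2% in iIELs and 0% of 5 B cells, and both CD8 genes were in 43.8% of iIELs. The share of iIELs with CD3 was 92.0% without the cells listed also as epithelial and 93.1% without those with 2 epithelial UMIs. Of the members, 2 passed 2-fold with no minimum (Cd8b1, Cd4) or with cell means (Cd8a, Cd8b1), and 4 in set X2 (Cd3d, Cd3e, Cd3g and Trbc2, lower in iIELs), beside 1 with all cells. Without the cells listed also as epithelial, iIELs of set X2 had 11024 in place of 40045 UMIs, and the ratios of these 4 genes in X2 were 1.12, 0.745, 1.17 and 0.977. The cause of the shares in X2 was not tested. No paired analysis was possible because barcodes carry no replicate number, and for the same reason no replicate could be left out. At these depths a cell without a UMI of a gene may still express it.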
